A study of Rattus norvegicus with 16 samples.

Results

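The amino acid catabolism enzymes described here are 35 named enzymes that break down phenylalanine and tyrosine, tryptophan, histidine, glutamine, glutamate and aspartate, proline, serine, glycine and its methylated forms, methionine and homocysteine, and the branched-chain amino acids. A member was found by the RefSeq accession that the arrays give for a probe, and counted as measured when a probe was well above background in at least 6 of 32 channels. By that rule 31 of the 35 were measured, among 20782 genes tested, and each of the 31 was above background in 32 of 32 channels. Of the 20782, 11937 carried a gene symbol. Each of the rest is a single probe without a symbol, counted here as a gene, so a gene can enter more than once. Shares, medians and ranks over all genes are over these 20782 entries. The single Sds probe (serine dehydratase) was above background in 4 of 32 channels, and its log2 ratios ran from −0.18 to 0.15, so no level is given for it. No probe was named for Uroc1, Amdhd1 or Gldc, and they were not analysed here.

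Primary hepatocytes, liver parenchymal cells freshly isolated and put in culture, came from male Sprague Dawley rats and were kept in Williams Medium E. At 48 hours after plating, some cultures received SQ1 at 100 µM, others pravastatin at 30 µM, and others nothing, and RNA was taken after a further 48 hours. Pravastatin is a statin, which blocks HMG-CoA reductase. SQ1 is a code name in the labels, known from hepatocyte work as squalestatin 1, which blocks squalene synthase further down the same pathway. RNA of 1 treated and 1 untreated culture was hybridised to each of 16 Agilent arrays, 8 for SQ1 and 8 for pravastatin, with the treated culture in the A555 dye on 4 arrays of each drug and in the A647 dye on the other 4. The doses differ between the drugs, and neither the age of the rats nor how many rats gave cells is given in the sources used here.

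The liver is the main site where most amino acids are degraded. Their carbon skeletons end as glucose precursors or as acetyl units, and their nitrogen goes to the urea cycle. Several of these enzymes, tyrosine aminotransferase and tryptophan dioxygenase above all, are classical targets of glucocorticoids and glucagon, and their levels are used as signs of a differentiated hepatocyte. Branched-chain amino acids are an exception, since their first step takes place mainly in muscle and the liver takes up their breakdown afterwards.

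In the A555 dye the arrays had median spot signals of 563 to 632 and median backgrounds of 306 to 315. In the A647 dye these were 753 to 1017 for the signal and 339 to 348 for the background. Any pair of SQ1 arrays had log ratios that correlated across genes at 0.752 or more, and any pair of pravastatin arrays at 0.568 or more (genes are not independent replicates). The drug names follow the scanner files and their labels. In the deposited value table, each column matched instead the other drug's array with the same number (correlation 0.999 to 1.00) rather than the array it is labelled with (0.45 to 0.562), so that with that table the drugs would change places. Arrays with the same number carry the same control number for both drugs, so the comparisons share untreated cultures. The control numbers, read from the names of the scanner files, split the arrays into 2 sets, called culture series here, replicates 1, 2, 5 and 6 and replicates 3, 4, 7 and 8. No label names such a series, and the split coincides with the scan days, so series and scan day cannot be told apart. Each of the 4 slides held 1 drug and 1 series, so drug and slide cannot be told apart.

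Most of these transcripts were lower in treated than in untreated hepatocytes, under either drug. With SQ1, 27 of 31 fell and 3 rose, and the median log2 ratio of treated over untreated was −0.62. With pravastatin, 25 of 31 fell and 3 rose, and the median was −0.37. Over all genes tested, the medians were 0.01 with SQ1 and 0.00 with pravastatin. Calls come from limma's moderated test, with p-values adjusted by the Benjamini-Hochberg method across the 20782 genes and a threshold of 0.05. By that rule 31.2% of all genes fell and 32.6% rose with SQ1, while 19.6% fell and 19.4% rose with pravastatin. With every array scaled to the same spread, 23 fell and 1 rose with SQ1 (median −0.47). With pravastatin, 24 fell and 3 rose under it (median −0.63). Of the 20782 genes, 9059 were then called in either direction with SQ1 and 8124 with pravastatin. That scaling ended the SQ1 calls of Hpd, Got1, Dmgdh, Bckdhb, Cbs and Hibch (adjusted p 0.082 to 0.30), so the rise with SQ1 was called only for Acmsd under it, and the pravastatin call of Aldh4a1 (adjusted p = 0.62). In RNA from whole cultures, fewer cells of a type and less RNA per cell cannot be told apart.

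Many of the falls were large beside those of other genes. With SQ1, 17 of the 31 fell by at least 1.5-fold, against 4.38% of all genes. With pravastatin, 6 of the 31 did so, against 0.972% of all genes. The lowest untreated level was above the highest treated level for 22 of the 31 with SQ1 (10.4% of all genes) and for 13 of the 31 with pravastatin (2.56% of all genes). The median over the 31 was negative on each array. It ran from −0.77 to −0.44 on the SQ1 arrays, with 26 to 28 members below 0, and from −0.55 to −0.25 on the pravastatin arrays, with 25 to 28 members below 0. Between the culture series, the array medians centred on −0.53 in the first and −0.76 in the second with SQ1, and on −0.34 in the first and −0.40 in the second with pravastatin.

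**Figure D1:**
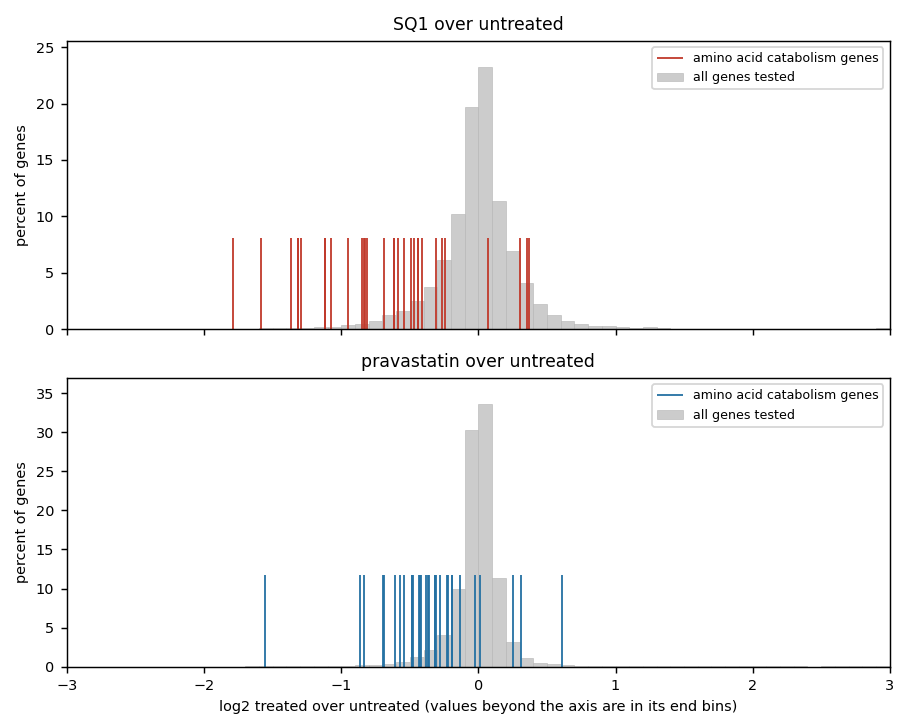
The x axis is the log2 ratio of treated over untreated cells and the y axis the percent of all 20782 genes tested in each bin of 0.1 (grey bars), for SQ1 above and pravastatin below. Coloured lines mark the 31 amino acid catabolism genes at their fitted means (line height has no meaning), most of them left of 0, with medians of −0.62 and −0.37.

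Most hepatocyte and macrophage markers fell alongside, as did most stellate cell and endothelial markers with SQ1. Over all genes, 31.2% fell with SQ1 and 19.6% with pravastatin. With SQ1, 10 of 10 measured hepatocyte markers fell (median −0.71), and their summed intensity was 1061000 to 1786000 in treated cultures, against 1932000 to 2624000 in untreated cultures. With pravastatin, 8 of 10 fell and 2 rose (median −0.31), and the sum was 1495000 to 2106000 in treated cultures, against 1589000 to 2460000 in untreated cultures. Albumin (Alb) fell by 0.55 ± 0.07 with SQ1 and by 0.25 ± 0.07 with pravastatin. All 15 macrophage markers were measured and fell with either drug, to a sum of 49380 to 73660 with SQ1, against 68280 to 122400 in untreated cultures, and to 46940 to 55820 with pravastatin, against 73470 to 110000. With every array scaled to the same spread, 4 of 10 hepatocyte and 7 of 15 macrophage markers fell with SQ1, and 4 of 10 and 15 of 15 with pravastatin. The cultures thus also held RNA with macrophage markers, and the part of either marker change in the falls described here was not tested.

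With SQ1, 10 of 10 measured stellate cell and fibroblast markers (12 listed) and 4 of 5 measured endothelial markers (9 listed) fell as well. The stellate sum was 28890 to 39300 with SQ1, against 49390 to 55930 in untreated cultures, and the endothelial sum 1182 to 1631, against 1595 to 2512. With pravastatin, 4 of 10 stellate markers fell, with sums of 43660 to 53500 in treated and 50530 to 57270 in untreated cultures. That count was 2 without pravastatin replicate 7. Of 5 measured endothelial markers, 2 fell with pravastatin, with sums of 1447 to 2982 in treated and 1524 to 2623 in untreated cultures, a count that was 1 or 0 without any 1 of pravastatin replicates 2 to 8. Of 5 measured cholangiocyte markers (7 listed), 2 fell and 1 rose with SQ1, with a median log2 ratio of −0.009. Their sum was 28950 to 34540 in treated cultures, against 19480 to 23960 in untreated cultures. Such a sum follows the brightest probes most, so it does not measure the amount of a cell type. With pravastatin, 1 cholangiocyte marker fell and 2 rose (median −0.003), and the sum was 23000 to 32360, against 18640 to 24720. Without pravastatin replicate 5 the number that fell was 0, and without replicate 7 the number that rose was 1.

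The strongest falls and rises are introduced with the DNA just before their start sites, to show what sequence stands in front of transcripts that moved in opposite directions. RefSeq promoter entries (build GRCr8) were found for 26 of the 31 members. Shown are the 250 bases before the start of the pair with the largest falls with SQ1, Hgd (homogentisate dioxygenase) and Bhmt (betaine-homocysteine methyltransferase), and of the pair with the largest rises, Hibch (3-hydroxyisobutyryl-CoA hydrolase) and Cbs (cystathionine beta-synthase). Each is written 5′ to 3′ on the gene's strand, and capitals mark matches, on either strand, to the motifs named after them.
Hgd, chr11:76643768-76644017, minus strand: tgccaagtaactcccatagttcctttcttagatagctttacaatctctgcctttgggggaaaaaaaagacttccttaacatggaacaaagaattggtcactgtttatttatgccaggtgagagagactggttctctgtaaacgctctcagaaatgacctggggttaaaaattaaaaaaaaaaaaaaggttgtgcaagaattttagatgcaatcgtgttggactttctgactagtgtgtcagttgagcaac
Bhmt, chr2:26614430-26614679, minus strand: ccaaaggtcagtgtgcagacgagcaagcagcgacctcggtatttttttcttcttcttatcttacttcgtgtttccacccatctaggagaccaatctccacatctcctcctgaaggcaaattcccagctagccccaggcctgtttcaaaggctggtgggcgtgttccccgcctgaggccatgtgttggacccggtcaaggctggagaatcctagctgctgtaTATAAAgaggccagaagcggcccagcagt
Hibch, chr9:56161797-56162046, minus strand: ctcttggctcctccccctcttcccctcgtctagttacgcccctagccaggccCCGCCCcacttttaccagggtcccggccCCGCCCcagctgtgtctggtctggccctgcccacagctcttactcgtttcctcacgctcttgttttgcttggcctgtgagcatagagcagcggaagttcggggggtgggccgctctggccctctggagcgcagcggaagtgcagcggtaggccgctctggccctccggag
Cbs, chr20:9733926-9734175, minus strand: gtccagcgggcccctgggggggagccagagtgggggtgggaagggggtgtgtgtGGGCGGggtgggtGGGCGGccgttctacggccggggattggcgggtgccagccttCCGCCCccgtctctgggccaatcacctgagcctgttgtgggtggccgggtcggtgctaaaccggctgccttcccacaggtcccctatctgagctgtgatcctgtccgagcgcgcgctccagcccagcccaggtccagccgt

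The Bhmt promoter held a TATA box (TATAAA) that begins 29 bases before the start. The Hibch promoter held 2 GC boxes (GGGCGG, here read as CCGCCC), 198 and 170 bases before the start, and the Cbs promoter held 3, at 196, 183 and 141 bases. The Hgd promoter held none of the motifs searched, and no 2 matches in these 4 promoters overlapped. Over the 26 members with an entry, 23 of which fell with SQ1, the GC box was in 13, against 30.5% of all 33469 promoters of the same 250 bases. TATAAA was in 5 of the 26 (12.9% of all promoters), the glucocorticoid receptor half-site TGTTCT in 4 (17.5%), the sterol regulatory element TCACNCCAC in 2, Ivd and Mccc1 (0.974%), and the HNF4 site CAAAGTCCA in 1, Kmo (0.338%). Matches to the FOXA site TGTTTAC (3.21% of all promoters), the cyclic AMP response element TGACGTCA (1.59%) and the C/EBP palindrome TTGCGCAA (0.14%) were not found in these windows. A match is a run of letters and not a measured binding site.

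Tyrosine breakdown held the largest fall of the whole set. Hgd, the dioxygenase that opens the ring of homogentisate, had log2 levels of 10.82 to 11.10 (median 10.90) in SQ1-treated cultures, against 12.39 to 13.11 (median 12.72) in untreated cultures. Its levels with pravastatin were 10.98 to 11.36 (median 11.09), against 12.49 to 12.83 (median 12.70). Treated and untreated levels were thus well apart under both drugs. Hgd fell by 1.79 ± 0.08, or 3.45-fold, with SQ1 (SE of the model, n = 8 arrays; limma adjusted p = 6.4e-13) and it fell by 1.56 ± 0.08, or 2.94-fold, with pravastatin (adjusted p = 2.1e-11). Among 20782 genes it ranked 47th from the lowest with SQ1 and 8th with pravastatin. The fall with SQ1 was −1.53 in the median of the first culture series and −2.07 in that of the second.

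The other members of tyrosine breakdown fell less than Hgd or were not called. Hpd, which makes homogentisate, fell by 0.54 ± 0.03 with SQ1 and by 0.48 ± 0.03 with pravastatin, with ratios of −0.71 to −0.37 and of −0.68 to −0.34 and no overlap of levels. Fah, which splits fumarylacetoacetate in the last step, fell by 0.68 ± 0.02 with SQ1 and by 0.43 ± 0.02 with pravastatin. Its ratios were the least variable of all members, at −0.77 to −0.60 on the SQ1 arrays and −0.53 to −0.37 on the pravastatin arrays. Tat, tyrosine aminotransferase, is the hormone-driven first step. It fell by 0.44 ± 0.06 with SQ1 (adjusted p = 3.1e-06), on 8 of 8 arrays. With pravastatin Tat was not called, at 0.01 ± 0.06 (95% interval −0.11 to 0.14; adjusted p = 0.88), with 4 arrays below 0 and 4 above. Its pravastatin ratios had a median of −0.23 in the first culture series and of 0.20 in the second.

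Tryptophan is degraded along the kynurenine pathway, and 5 of its 6 members fell with each drug. Tdo2, tryptophan 2,3-dioxygenase, the liver's entry enzyme, had log2 levels of 15.82 to 16.50 (median 16.11) with SQ1, against 17.28 to 17.68 (median 17.42) untreated, and 16.39 to 17.00 (median 16.73) with pravastatin, against 17.21 to 17.44 (median 17.33) untreated. Neither pair of ranges overlapped. Tdo2 fell by 1.31 ± 0.05, or 2.48-fold, with SQ1 and by 0.61 ± 0.05, or 1.52-fold, with pravastatin. Afmid, which hydrolyses formylkynurenine, fell by 0.41 ± 0.04 with SQ1 and by 0.20 ± 0.04 with pravastatin. Its pravastatin call was lost within the first culture series (−0.10; adjusted p = 0.084).

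The enzymes in the middle of the pathway fell with both drugs. Kynu, kynureninase, had log2 levels of 13.38 to 13.54 (median 13.42) in SQ1-treated cultures, against 14.35 to 15.18 (median 14.69) in untreated cultures. The Kynu levels with pravastatin, 14.19 to 14.51 (median 14.33), lay just under the untreated ones, 14.58 to 14.86 (median 14.74). Kynu fell by 1.29 ± 0.08, or 2.45-fold, with SQ1 and by 0.37 ± 0.08, or 1.29-fold, with pravastatin. Kmo, kynurenine monooxygenase, fell by 1.12 ± 0.09 with SQ1 and by 0.70 ± 0.09 with pravastatin. Haao, which makes the unstable precursor of quinolinate, fell by 0.85 ± 0.04 with SQ1 and by 0.43 ± 0.04 with pravastatin. In the second culture series the SQ1 medians were −1.58 for Kynu and −1.43 for Kmo, against −1.01 and −0.83 in the first.

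Acmsd moved the other way. This decarboxylase draws intermediates of the pathway away from quinolinate, and thereby from NAD synthesis, toward full oxidation. Its log2 levels were 9.37 to 9.61 (median 9.49) with SQ1, against 9.03 to 9.32 (median 9.17) untreated, and 9.62 to 10.07 (median 9.85) with pravastatin, against 8.96 to 9.49 (median 9.18) untreated. All 8 ratios were above 0 under each drug, and levels did not overlap. Acmsd rose by 0.30 ± 0.05, or 1.23-fold, with SQ1 (adjusted p = 4.5e-05) and by 0.61 ± 0.05, or 1.53-fold, with pravastatin (adjusted p = 3.6e-08), the only rise among the 31 that reached 1.5-fold.

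**Figure D2:**
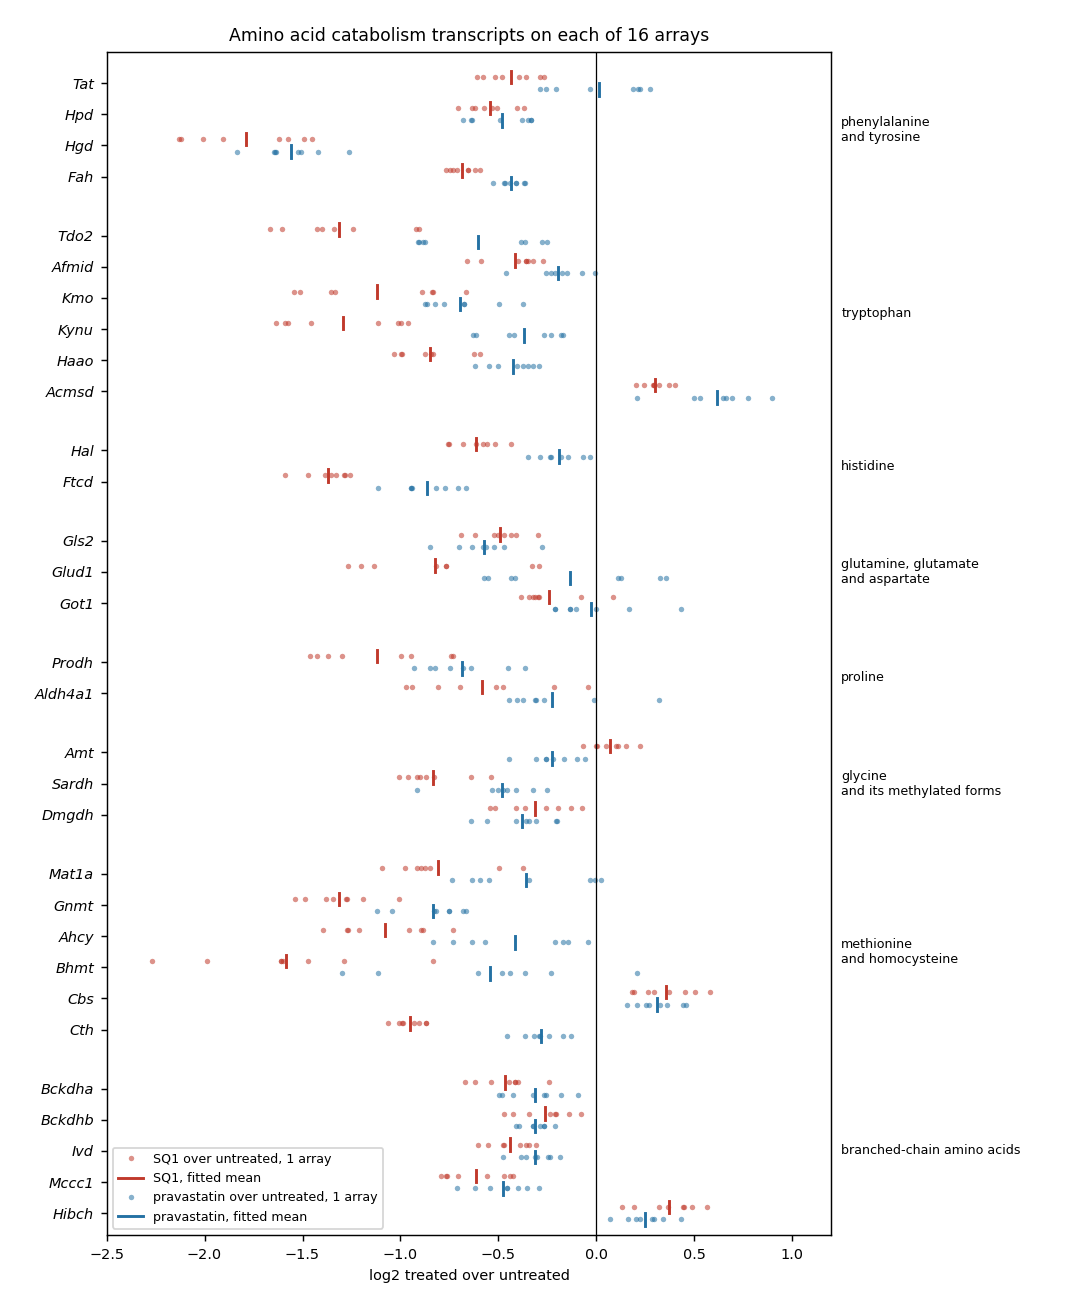
The x axis is the log2 ratio of treated over untreated cells, with a row for each of the 31 measured genes, grouped by amino acid. Points are single arrays (8 for SQ1, red and above; 8 for pravastatin, blue and below) and bars the fitted means. Hgd stands furthest left under both drugs, and Acmsd, Cbs and Hibch lie right of 0 on every array.

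In histidine breakdown 2 members were measured, and both fell. Ftcd is a bifunctional enzyme that passes the one-carbon unit of histidine to folate. It had log2 levels of 14.26 to 14.91 (median 14.54) with SQ1, against 15.54 to 16.19 (median 15.91) untreated, and 14.85 to 15.23 (median 14.97) with pravastatin, against 15.67 to 16.13 (median 15.86) untreated. The ranges were apart under both drugs. Ftcd fell by 1.37 ± 0.04, or 2.58-fold, with SQ1 and by 0.86 ± 0.04, or 1.82-fold, with pravastatin, where only the falls of Hgd exceeded it among the 31. Hal, histidine ammonia-lyase, the first step, fell by 0.61 ± 0.04 with SQ1 and by 0.19 ± 0.04 with pravastatin, and with pravastatin its treated and untreated levels overlapped.

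The enzymes that release nitrogen from glutamine, glutamate and aspartate did not move as one. Gls2, the liver glutaminase, fell by 0.49 ± 0.05 with SQ1 and by 0.57 ± 0.05 with pravastatin. Glud1, glutamate dehydrogenase, fell by 0.82 ± 0.06 with SQ1 (adjusted p = 1.4e-09), with ratios of −1.27 to −0.30. With pravastatin Glud1 was not called, at −0.13 ± 0.06 (adjusted p = 0.098). It was called lower with a replicate block as a fixed term (adjusted p = 0.011) and with culture series as a term (adjusted p = 0.021). The same call was made within the second series (adjusted p = 0.0021) and with only the pravastatin arrays fitted (adjusted p = 0.013). Its pravastatin ratios parted by dye, with a median of 0.23 where the treated culture was in A647 and of −0.50 where it was in A555. With SQ1 these medians were −0.55 and −1.17. The fit removes that dye effect. Got1, the cytosolic aspartate aminotransferase, fell by 0.24 ± 0.06 with SQ1 (adjusted p = 0.0023), on 7 of 8 arrays, with replicate 4 at 0.08. That call was lost with median centring in place of loess (−0.15; adjusted p = 0.060). With pravastatin Got1 was at −0.03 ± 0.06 and was not called (adjusted p = 0.79).

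Both proline enzymes fell. Prodh, proline dehydrogenase, the first step, fell by 1.12 ± 0.08 with SQ1, with ratios of −1.46 to −0.73, and by 0.69 ± 0.08 with pravastatin, with ratios of −0.93 to −0.36. A second, much dimmer Prodh probe averaged −0.42 with SQ1 and −0.23 with pravastatin. Aldh4a1, which oxidises the product to glutamate, fell by 0.58 ± 0.08 with SQ1 and by 0.22 ± 0.08 with pravastatin. The pravastatin call of Aldh4a1 (adjusted p = 0.044) was lost without any 1 of pravastatin replicates 2 to 8 (−0.24 to −0.17; adjusted p 0.056 to 0.14), and replicate 1 stood at 0.32. Its second probe, also dim, averaged −0.17 with SQ1 and −0.05 with pravastatin.

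Among the enzymes of glycine and its methylated forms, the demethylating ones fell and the cleavage system member did not follow them with SQ1. Sardh, sarcosine dehydrogenase, fell by 0.83 ± 0.06 with SQ1 and by 0.48 ± 0.06 with pravastatin. Dmgdh, dimethylglycine dehydrogenase, fell by 0.31 ± 0.04 with SQ1 and by 0.38 ± 0.04 with pravastatin. Amt, the aminomethyltransferase of the glycine cleavage system, had log2 ratios of −0.07 to 0.22 (median 0.07) on the SQ1 arrays and of −0.45 to −0.06 (median −0.24) on the pravastatin arrays. With SQ1 it was not called, at 0.07 ± 0.03 (adjusted p = 0.075). It was called higher without SQ1 replicate 8 (0.10; adjusted p = 0.0089) and with a replicate block as a fixed term (adjusted p = 0.038). With pravastatin Amt fell by 0.23 ± 0.03 (adjusted p = 3.2e-05), on 8 of 8 arrays.

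Of the 6 listed enzymes of methionine and homocysteine, 5 fell with each drug, and 1 of them, Bhmt, had the second largest fall of the 31 with SQ1. Bhmt uses betaine to turn homocysteine back into methionine. Its log2 levels were 15.92 to 16.77 (median 16.30) in SQ1-treated cultures, against 17.53 to 18.38 (median 17.92) in untreated cultures, with no overlap. With pravastatin they were 16.71 to 17.43 (median 17.10), against 17.22 to 18.02 (median 17.70), and these overlapped. Bhmt fell by 1.58 ± 0.10, or 3.0-fold, with SQ1 and by 0.54 ± 0.10, or 1.46-fold, with pravastatin, where replicate 6 stood at 0.21. The Bhmt probe could also bind RNA of its close neighbour Bhmt2, whose own probe fell by 1.12 ± 0.08 with SQ1 and by 0.35 ± 0.08 with pravastatin.

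The enzymes that make and use S-adenosylmethionine, the cell's methyl donor, fell as well. Mat1a, the liver synthetase, fell by 0.81 ± 0.05 with SQ1 and by 0.36 ± 0.05 with pravastatin. Its pravastatin ratios ran from −0.74 to 0.02, and treated and untreated levels overlapped there. Gnmt, glycine N-methyltransferase, which disposes of excess methyl groups, had log2 levels of 13.15 to 13.66 (median 13.38) with SQ1, against 14.58 to 14.77 (median 14.68) untreated, and 13.59 to 13.96 (median 13.81) with pravastatin, against 14.43 to 14.75 (median 14.66) untreated. Gnmt levels were apart under both drugs, and it fell by 1.31 ± 0.04, or 2.49-fold, with SQ1 (adjusted p = 1.8e-15, the smallest among the 31) and it fell by 0.83 ± 0.04, or 1.78-fold, with pravastatin. Ahcy, which hydrolyses S-adenosylhomocysteine, fell by 1.08 ± 0.03 with SQ1 and by 0.42 ± 0.03 with pravastatin. Like Glud1, Ahcy parted by dye with pravastatin, yet all 8 ratios were below 0. Its median was −0.16 where the treated culture was in A647 and −0.68 where it was in A555. Other members parted by dye too with pravastatin. Among them, the A647 and A555 medians were −0.02 and −0.61 for Mat1a, −0.32 and −0.89 for Tdo2, and −0.30 and −0.86 for Bhmt.

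The 2 steps of transsulfuration, which carry homocysteine to cysteine, moved in opposite directions. Cbs, the first step, had log2 levels of 13.80 to 14.18 (median 13.99) with SQ1, against 13.51 to 13.77 (median 13.64) untreated, and 13.86 to 14.06 (median 13.97) with pravastatin, against 13.53 to 13.72 (median 13.63) untreated. Every treated level was above every untreated one. Cbs rose by 0.35 ± 0.04, or 1.28-fold, with SQ1 (adjusted p = 8.9e-07) and by 0.31 ± 0.04, or 1.24-fold, with pravastatin (adjusted p = 1.7e-05). Cth, the second step, had log2 levels of 13.92 to 14.25 (median 14.01) with SQ1, against 14.87 to 15.12 (median 14.98) untreated, and 14.63 to 14.78 (median 14.70) with pravastatin, against 14.89 to 15.09 (median 15.00) untreated. It fell by 0.95 ± 0.03, or 1.94-fold, with SQ1 and by 0.28 ± 0.03, or 1.22-fold, with pravastatin.

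**Figure D3:**
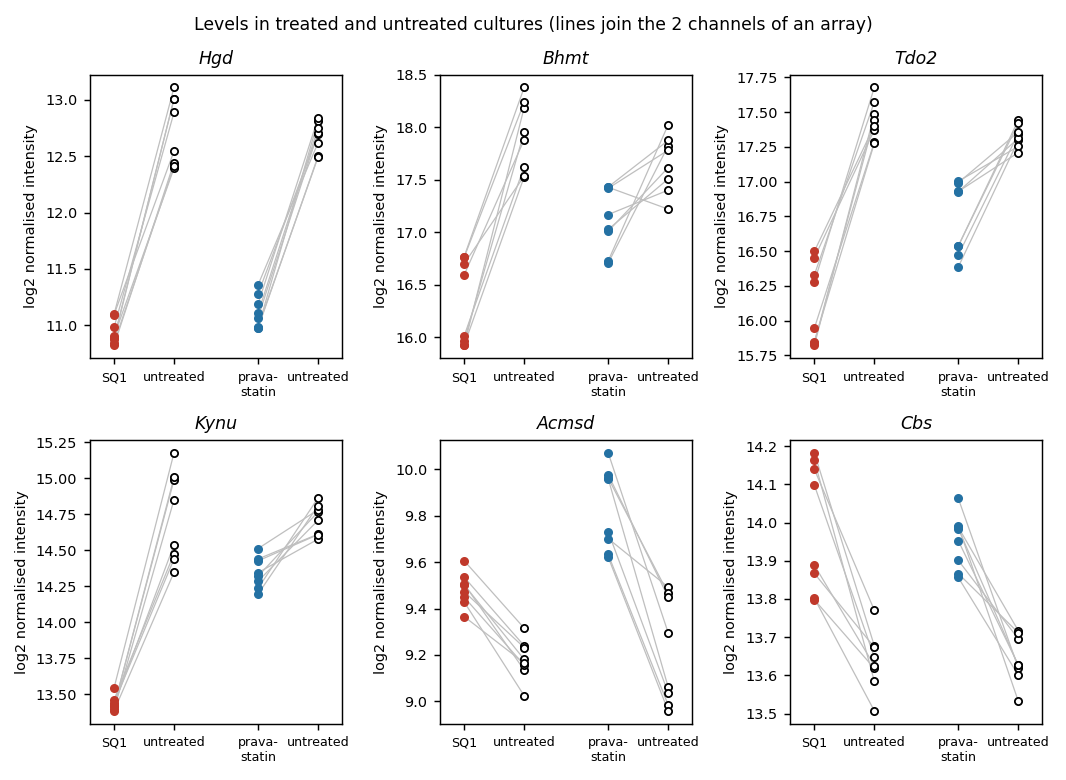
The y axes give log2 normalised intensity of 6 genes, each on its own scale, in treated (filled) and untreated (open) cultures, with SQ1 arrays on the left of each panel and pravastatin arrays on the right. Each point is 1 channel and lines join the channels of 1 array. Treated levels are below untreated ones for Hgd, Tdo2 and Kynu under both drugs, overlap untreated ones for Bhmt with pravastatin, and are above them for Acmsd and Cbs.

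Branched-chain amino acid breakdown fell apart from 1 rise. Bckdha and Bckdhb, subunits of the dehydrogenase that commits the keto acids, fell by 0.47 ± 0.04 and 0.26 ± 0.03 with SQ1 and by 0.31 ± 0.04 and 0.31 ± 0.03 with pravastatin. Ivd, of leucine breakdown, fell by 0.44 ± 0.03 with SQ1 and by 0.31 ± 0.03 with pravastatin. Mccc1, a subunit of the next leucine enzyme, fell by 0.62 ± 0.05 with SQ1 and by 0.48 ± 0.05 with pravastatin. Hibch, of valine breakdown, had log2 levels of 14.49 to 14.75 (median 14.59) with SQ1, against 14.06 to 14.41 (median 14.22) untreated, and 14.30 to 14.61 (median 14.48) with pravastatin, against 14.02 to 14.42 (median 14.23) untreated. Levels overlapped only with pravastatin, while all 8 ratios were above 0 with each drug. Hibch rose by 0.37 ± 0.03, or 1.29-fold, with SQ1 and by 0.25 ± 0.03, or 1.19-fold, with pravastatin, and a second probe averaged 0.42 with SQ1 and 0.26 with pravastatin.

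Set against each other in 1 fit, the drugs differed for most of these genes as long as the arrays kept their own spread. The log2 ratio was lower with 100 µM SQ1 than with 30 µM pravastatin for 21 of 31 (19.5% of all genes) and higher for 2, Amt and Hibch (18.4% of all genes), with a median difference of −0.35 (0.00 over all genes). Bhmt differed most, at −1.04 ± 0.14 (95% interval −1.34 to −0.74; adjusted p = 1.2e-05). It was followed by Kynu at −0.92 ± 0.11, Tdo2 at −0.71 ± 0.07, Glud1 at −0.69 ± 0.09, Cth at −0.67 ± 0.05 and Ahcy at −0.66 ± 0.05, each lower with SQ1 in 8 of 8 pairs of same-numbered arrays. The ratios on the SQ1 arrays did not overlap those on the pravastatin arrays for Fah, Kynu, Hal, Ftcd and Cth. How many of all genes showed no such overlap was not counted, so this does not set the members apart from other genes.

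This difference depends on scale. SQ1 arrays had the wider log ratios over all genes, with a median absolute deviation of 0.202 to 0.263, against 0.052 to 0.17 on the pravastatin arrays. When every array was scaled to the same spread, 2 of 31 were lower with SQ1, Kynu at −0.51 (adjusted p = 0.00084) and Acmsd at −0.52 (adjusted p = 2.2e-05), and the median difference was 0.02. Under that scaling Amt stayed higher with SQ1, at 0.41 (adjusted p = 0.017), and Gls2 was called higher, at 0.37 (adjusted p = 0.0062). How many of all genes were called in the difference under it was not counted. Doses also differed, so the values do not set the compounds against each other at a matched dose.

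Tyrosine, tryptophan and methionine enzymes differed to unequal extents. All 6 tryptophan members were lower with SQ1 than with pravastatin: Tdo2 and Kynu as above, Kmo at −0.43 ± 0.12, Haao at −0.42 ± 0.05, Acmsd at −0.31 ± 0.07 and Afmid at −0.22 ± 0.06. Acmsd is in that count because it rose less with SQ1, and its call was lost within the first culture series (−0.18; adjusted p = 0.21), as was that of Afmid within the second (−0.17; adjusted p = 0.059). Mat1a at −0.45 ± 0.08 and Gnmt at −0.48 ± 0.05 were lower with SQ1, as were Tat at −0.45 ± 0.08 and Fah at −0.25 ± 0.03. Ftcd differed by −0.50 ± 0.06, Hal by −0.42 ± 0.05, Prodh by −0.44 ± 0.12 and Sardh by −0.35 ± 0.08. Amt was higher with SQ1 by 0.30 ± 0.05 (adjusted p = 6.7e-05), in 8 of 8 pairs.

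For 8 members no difference was called. Their 95% intervals were −0.14 to 0.01 for Hpd, −0.46 to −0.00 for Hgd, −0.06 to 0.23 for Gls2, −0.41 to −0.03 for Got1, −0.04 to 0.18 for Dmgdh, −0.08 to 0.17 for Cbs, −0.06 to 0.15 for Bckdhb and −0.28 to 0.01 for Mccc1. With a random replicate block, 24 were lower with SQ1, Hgd (adjusted p = 0.019), Got1 (adjusted p = 0.0059) and Mccc1 (adjusted p = 0.028) being added, and with a fixed replicate block Gls2 was higher (adjusted p = 0.035). Hgd was also called lower without SQ1 replicate 6 (adjusted p = 0.041), and Got1 without SQ1 replicate 4 (adjusted p = 0.022) or 5 (adjusted p = 0.040).

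Among the called differences, 4 were near the threshold. Aldh4a1, at −0.36 ± 0.12 (adjusted p = 0.024), lost its call without SQ1 replicate 3, 4, 7 or 8 or pravastatin replicate 1 (adjusted p 0.051 to 0.054). Bckdha, at −0.15 ± 0.06 (adjusted p = 0.041), lost it without SQ1 replicate 1, 3, 4, 5, 6 or 7 or pravastatin replicate 2, 5, 6 or 7 (adjusted p 0.053 to 0.085). Ivd, at −0.13 ± 0.05 (adjusted p = 0.045), lost it without SQ1 replicate 3, 4, 7 or 8 or pravastatin replicate 1, 2, 4, 5, 6 or 7 (adjusted p 0.051 to 0.092). Hibch, at 0.12 ± 0.04 (adjusted p = 0.029), lost it without SQ1 replicate 2, 5 or 6 or pravastatin replicate 2, 3 or 7 (adjusted p 0.053 to 0.061).

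**Figure D4:**
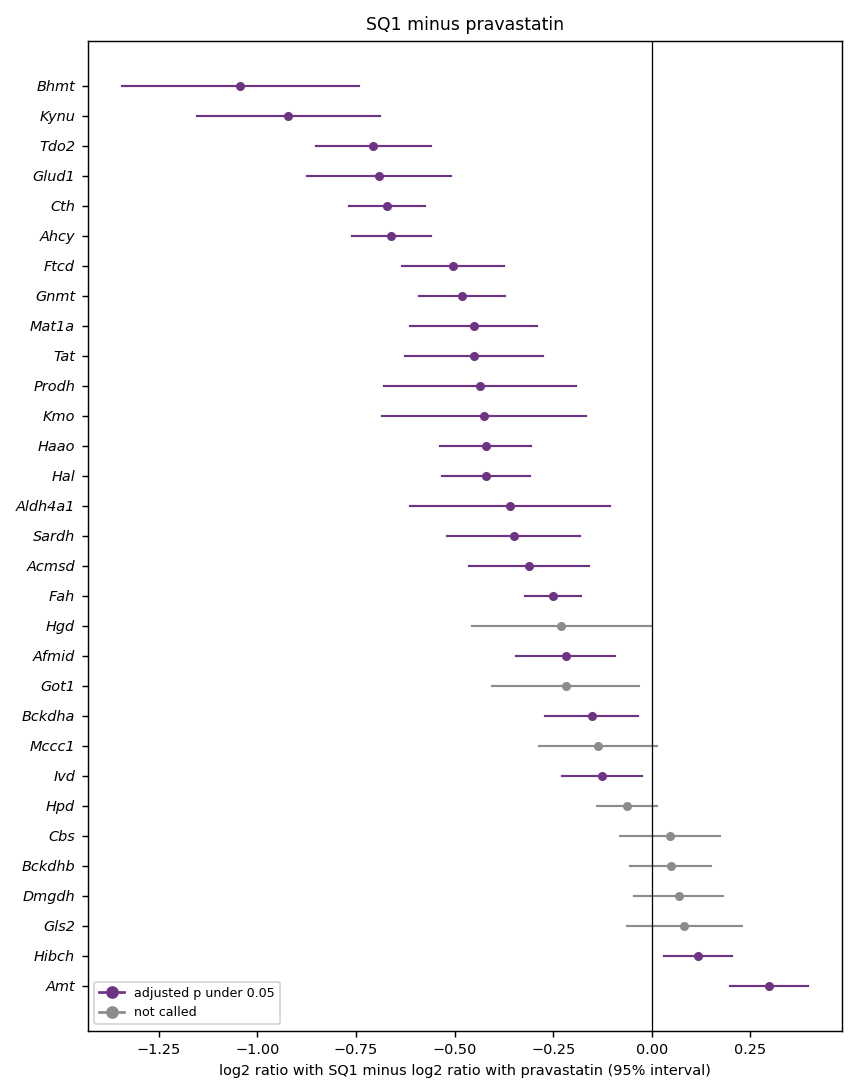
The x axis is the log2 ratio with SQ1 minus the log2 ratio with pravastatin, with its 95% interval, for each of the 31 genes ordered from lowest to highest. Purple marks differences at an adjusted p under 0.05 and grey those not called; Bhmt and Kynu stand furthest left, and Amt furthest right.

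Other genes of amino acid breakdown mostly fell too, by less. Of 64 measured (72 listed), 42 fell and 11 rose with SQ1 (median −0.30), where 31.2% of all genes fell and 32.6% rose. With pravastatin, 46 fell and 8 rose (median −0.18), where 19.6% of all genes fell and 19.4% rose. Gcat, which splits the threonine product aminoketobutyrate, rose by 2.23 ± 0.04 with SQ1 and by 1.95 ± 0.04 with pravastatin, the largest change of the list under each drug. Pipox, which oxidises sarcosine and pipecolate, fell by 1.30 ± 0.07 with SQ1 and by 0.34 ± 0.07 with pravastatin. Cdo1, cysteine dioxygenase, fell by 1.24 ± 0.05 with SQ1 and by 0.42 ± 0.05 with pravastatin. The larger falls with pravastatin were those of Kyat3, a kynurenine aminotransferase (−1.002 ± 0.028 with SQ1 and −0.88 ± 0.03 with pravastatin), Gpt, alanine aminotransferase (−0.70 ± 0.05 with SQ1 and −0.85 ± 0.05 with pravastatin), and Dhtkd1, of lysine breakdown (−0.94 ± 0.05 with SQ1 and −0.74 ± 0.05 with pravastatin).

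Amino acid transporters did not share the fall as a set. Of 19 measured (23 listed), 11 rose and 3 fell with SQ1 (median 0.19), where 32.6% of all genes rose and 31.2% fell. With pravastatin, 7 rose and 5 fell (median 0.01), where 19.4% of all genes rose and 19.6% fell. The 3 that fell with SQ1 were 5 with a fixed replicate block, and 1 with median centring. Slc3a2, the heavy chain of several exchangers, rose by 1.04 ± 0.06 with SQ1 and was at 0.02 ± 0.06 with pravastatin (adjusted p = 0.86), a difference of 1.03 ± 0.08 (adjusted p = 1.5e-08). Slc1a4, a carrier of small neutral amino acids, rose by 0.72 ± 0.04 with SQ1 and by 0.34 ± 0.04 with pravastatin. Slc43a1, a carrier of large neutral amino acids, rose by 0.52 ± 0.05 with SQ1 and by 0.60 ± 0.05 with pravastatin. Slc6a6, the taurine carrier, rose by 0.48 ± 0.11 with SQ1 and fell by 0.30 ± 0.11 with pravastatin (adjusted p = 0.047).

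Of 20 measured hormonal regulators and liver transcription factors (21 listed), 13 fell and 4 rose with SQ1 (median −0.20), where 31.2% of all genes fell and 32.6% rose. With pravastatin, 9 fell and 3 rose (median −0.07), where 19.6% of all genes fell and 19.4% rose. The 4 that rose with SQ1 were 2 without SQ1 replicate 1, 2 or 6. Klf15, a transcription factor that drives amino acid breakdown in mouse liver, fell by 1.47 ± 0.04 with SQ1 and by 0.71 ± 0.04 with pravastatin. Nr1h4, the bile acid receptor FXR, fell by 1.38 ± 0.08 with SQ1 and by 0.65 ± 0.08 with pravastatin. Gcgr, the glucagon receptor, fell by 1.23 ± 0.03 with SQ1 and by 0.29 ± 0.03 with pravastatin. Creb1, the cyclic AMP-responsive factor, rose by 0.69 ± 0.03 with SQ1 and by 0.35 ± 0.03 with pravastatin.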

How the data were processed

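Per the file headers, the authors measured spots with Agilent Feature Extraction 10.7.1.1, and the deposited scanner files give median spot and background brightness as intensity. Their log10 column is the log10 of red over green processed signal, per the file headers, and was not used. The deposited value table holds log2 treated over untreated by its values, and served only as an alternative. Probes were named through RefSeq (GRCr8); the files use rn4. The steps were normexp background correction with offset 50, loess within arrays, and averaging of spots; the brightest probe stood for a gene. limma 3.58.1 in R 4.3.3 fitted log2 ratios of all 16 arrays with a term per drug and a dye term (two-sided tests). Levels are loess- and Aquantile-normalised log2 intensities, comparable within a probe only. The number of arrays limits the precision.

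Members and lists were chosen with earlier results of these data known. Measured members are all named; of other lists, the 4 largest changes per drug among catabolic genes and the 3 largest among transporters and regulators. Arrays with the same number had residual correlations of 0.143 to 0.628, so the numbers were taken as pairs, although replicates 2, 7 and 8 correlated better with another number (0.361, 0.391 and 0.331, against 0.34, 0.343 and 0.143). Printed changes and errors come from the fit without a pair term, and blocked calls stand beside the results they change. Nothing in the sources says whether cultures came from separate rats, so p-values measure the spread between these cultures. The fit was tested on simulated data for SQ1 against untreated, over 20751 genes, and recovered 100% of 100 genes changed by 0.5 on the log2 scale. Unlike the data, the simulation had independent noise on each array and few changed genes, so it cannot tell how many calls here are false.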

Additional observations from a re-analysis of the deposited data

Results flagged for a closer look

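The sarcosine dehydrogenase Sardh had a log2 ratio of −0.913 on pravastatin replicate 3, while the other 7 pravastatin arrays lay between −0.532 and −0.253. The gap to the nearest array was 0.577 of the whole range, above Dixon's critical value for 8 samples at the 95% level. Without that array Sardh fell by 0.42 with pravastatin (limma adjusted p = 4.3e-06). Of 62 such groups tested, 1 was set apart in this way, and chance sets apart about 1 in 20.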

How the results depend on the processing

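Across the alternatives other than the deposited value table, 24 of 31 members kept direction and side of the threshold with SQ1, 26 with pravastatin. As SQ1 minus pravastatin, 3 did so (Kynu, Amt and Dmgdh). Scaling all arrays to the same spread, which shrinks wide arrays and stretches narrow ones by construction, moved most. It gave 1 member higher with SQ1, medians of −0.47 with SQ1, −0.63 with pravastatin and 0.0234 for the difference, and 2 members lower in the difference. Under it the difference turned for 14 members: Fah (0.17), Tdo2 (0.0234), Kmo (0.0701), Ftcd (0.37), Prodh (0.0875), Mat1a (0.0242), Gnmt (0.25), Bckdha (0.17), Ivd (0.14) and Hibch (−0.17), called without it, and Hgd (0.88), Hpd (0.38), Mccc1 (0.18) and Cbs (−0.25), not called without it. None of the 14 was called under it. The SQ1 median was −0.76 within the second culture series, and the median difference −0.24 within the first, the cause of which was not tested. Members higher in the difference numbered 1 within the first series, within the second and with the slide as a block. Leaving out 1 array gave 1 to 2 there, 18 to 21 lower, and medians of the difference of −0.39 to −0.31. With SQ1 it gave 3 to 4 higher and 27 lower, and with pravastatin 3 higher and 24 to 25 lower. With the replicate block, random or fixed, 27 members fell with SQ1 and 24 were lower in the difference, and no call of a member changed beyond those given beside the results. The deposited value table as labelled, with the drugs exchanged, gave 19 members higher and 2 lower in the difference. Signal over background did not limit the 31 members, all above background in each channel; dim second probes of Prodh and Aldh4a1 gave smaller changes.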
